A study of Homo sapiens with 2 samples.

Results

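Cadherins, catenins and desmosome genes were described in RNA sequencing counts from a human prostate cancer cell line. The members were all rows whose symbol is CDH, CTNNA, CTNNB, CTNND, DSG, DSC or PKP with a number, or begins with PCDH, together with JUP and DSP. This rule looks at names alone and found 96 of the 17249 rows. They comprised 14 classical cadherins (5 of type I and 9 of type II), 4 other cadherins, 4 desmosomal cadherins, 5 desmosome plaque genes, 6 catenin genes, 12 non-clustered protocadherins, and 14, 14 and 23 genes of the alpha, beta and gamma protocadherin clusters. The counts came from 2 libraries, both labelled DU145, an established line of epithelial origin. The sample labelled si-P53RRA received 200 pmol of a small interfering RNA in a lipid reagent, directed at P53RRA, the long noncoding RNA of LINC00472. The medium was renewed after 4 h and cells were harvested 48 h later. The other sample, here the control, is titled only with the name of the line, and its counts are headed si-NC. Both were grown in the same serum-containing medium, and the labels attach the same treatment text to both. The sources used here do not say whether a library came from a single culture or a pool. With 1 library per group there is no replicate check and no test between the conditions. Higher and lower mean the si-P53RRA library against the control library throughout, and values in parentheses after a fold are exact 95% intervals that cover counting error only.

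Cadherins are calcium-dependent adhesion receptors, most of which bind the same cadherin on the neighbouring cell. At adherens junctions the tail of a classical cadherin binds beta-catenin and p120-catenin, and alpha-catenin ties that complex to actin. At desmosomes, desmogleins and desmocollins are joined through plakoglobin and plakophilins to desmoplakin, which anchors keratin filaments. Epithelial cells of the prostate are known for E-cadherin (CDH1), and mesenchymal cells for N-cadherin (CDH2). The clustered protocadherins are best known from neurons, where the choice of cluster promoter gives cells different surface identities.

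The control library held 16030207 counts and the si-P53RRA library 11942362. After scaling, 1 count stood for 0.0596 and 0.0877 CPM, the normalised read count that sets libraries of different depth on a common scale. LINC00472 had 105 and 6 counts, 11.9-fold lower (5.29 to 33.2). Checked against markers, the control library went against its label of an epithelial line. There the fibroblast genes COL1A1 and THY1 had 77422 and 10323 counts, while EPCAM, KRT19 and CDH1 had 0, 8 and 2, although the epithelial keratins KRT8 and KRT18 had 649 and 5870. Whether both libraries came from the same line was not tested, and with 1 library each a difference between the cells and an effect of the small interfering RNA cannot be told apart in any fold below. Of 16 epithelial markers, 9 reached 1 CPM in either library; 7 of these were at least 2-fold higher and none was lower, and the 15 measured markers summed to 395 CPM in the control and 2053 CPM in the si-P53RRA library. EPCAM, a defining epithelial surface protein, had 50 counts in the si-P53RRA library. All 15 mesenchymal and fibroblast markers reached 1 CPM, of which 14 were lower and none was higher, with summed levels of 15226 and 1574 CPM. Each count of higher and lower markers stands beside 19.7% and 23.2% of all rows that reached 1 CPM in either library. COL1A1 had 97 counts in the si-P53RRA library, and THY1, DCN and FAP were at 0 there. Basal, endothelial and leukocyte markers summed to 1.07, 3.10 and 40.6 CPM in the control and to 11.5, 24.3 and 79.3 CPM in the si-P53RRA library. CD68 gave 39.7 and 77.9 CPM of the leukocyte sums, while PTPRC and CSF1R were at 0 in the si-P53RRA library. KRT15 gave 0.775 and 11.4 CPM of the basal sums. Of the 4 endothelial markers that reached 1 CPM, 3 were higher and 1, TEK, was lower. Neural and glial markers summed to 3.40 and 16.0 CPM, and luminal prostate markers, through HOXB13 with 0 and 10004 counts, to 33.2 and 917 CPM. The markers EPCAM, RAB25, GRHL2 and PRSS8 were at 0 in the control library, and SPINT1 in the other. In the si-P53RRA library RAB25 and PRSS8 had 1 count each, GRHL2 had 6, CDH1 7 and ESRP1 11, all under 1 CPM. That library thus lacked part of the epithelial pattern too, and whether it bears out its label was not tested. These lists differ between the same 2 libraries as all results below, and their part in those results was not tested. In bulk RNA, fewer cells of a type and less RNA per cell cannot be told apart.

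Most members with appreciable expression differed between the libraries. Of the 96 members, 53 reached 1 CPM in either library, and with a 2-fold limit on the log2(CPM + 0.5) scale 21 of them were higher and 26 lower. Over all 13532 rows that reached 1 CPM, 19.7% were higher and 23.2% lower, so that 42.9% were apart in either direction. The member counts cannot be read alone, because 21 members passed only through the control library and 17 only through the si-P53RRA library, and such genes tend to differ by construction. Only 15 members passed in both libraries, and of these 4 were higher and 5 lower, against 33.2% apart over the rows that passed in both. With no filter, 26 of the 96 were higher and 30 lower, against 36.1% apart over all rows. At least 10-fold differences, a size chosen after the data were seen, were found for 8 members that were higher and 10 that were lower, beside 3.67% and 4.77% of all rows tested, or 8.45% in either direction. These were also taken on the log2(CPM + 0.5) scale, where genes with few counts have smaller folds than the CPM ratios and bounds printed below. The median log2 change of the 53 members was −0.56, beside −0.055 for all rows tested; with each protocadherin cluster summed to a single value it became 0.20. The 43 members under 1 CPM had 0 to 14 counts in the control and 0 to 10 in the si-P53RRA library.

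**Figure D1:**
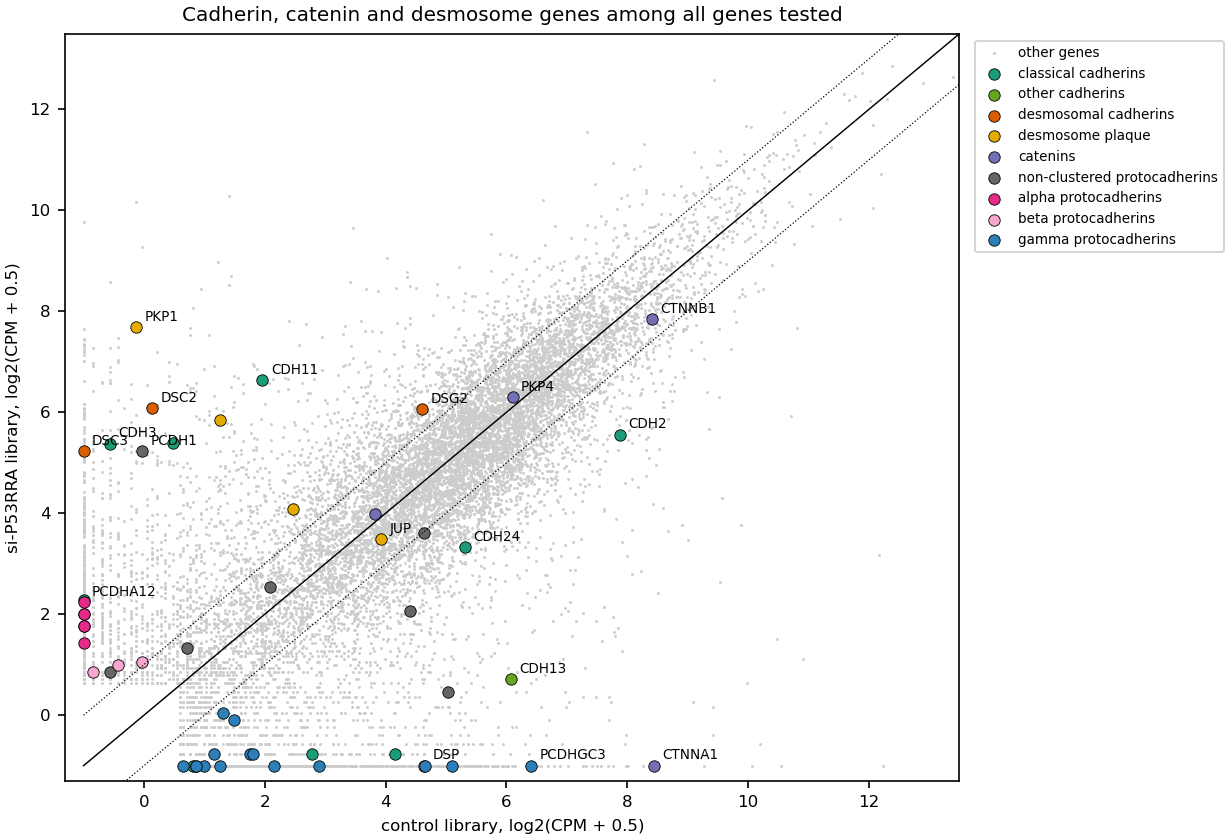
Level of each gene in the control library (x axis) and the si-P53RRA library (y axis), both as log2(CPM + 0.5), for the 13532 genes tested (grey) and the members among them (coloured by role). The solid line marks equal levels and the dotted lines 2-fold differences; gamma protocadherins, CTNNA1 and DSP lie along the bottom edge, and alpha protocadherins and DSC3 along the left edge.

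The classical cadherins differed in their order and shares between the libraries, with some members common to both. In the control library N-cadherin, CDH2, was the most abundant, with CDH24 and CDH6 after it. In the si-P53RRA library CDH11 was the most abundant, with CDH2, CDH12 and CDH3 after it. Their summed level was nearly the same, 305 and 244 CPM, 1.25-fold lower (1.19 to 1.31). Of the 10 classical cadherins that reached 1 CPM, 4 were higher and 6 lower, beside 19.7% and 23.2% of all rows tested. Only CDH2, CDH11 and CDH24 reached 1 CPM in both libraries.

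Among type I cadherins, CDH2 had 3947 counts (235 CPM) in the control and 532 counts (46.6 CPM) in the si-P53RRA library, 5.04-fold lower (4.61 to 5.53). P-cadherin, CDH3, known from basal epithelial layers, had 3 counts (0.179 CPM) and 469 counts (41.1 CPM), 230-fold higher (78.2 to 1119). R-cadherin, CDH4, known from the retina, had 107 counts (6.38 CPM) and 1 count, 72.7-fold lower (12.8 to 2899.9). CDH2 was thus clearly present in both libraries, whereas CDH3 and CDH4 were each near 0 in one of them. E-cadherin, CDH1, the defining epithelial member, was close to the detection limit in both, with 2 and 7 counts (0.119 and 0.614 CPM). The interval of its ratio, 5.15-fold higher (0.980 to 50.8), includes 1. CDH15, known as muscle cadherin, had 0 and 8 counts, under 1 CPM.

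Among type II cadherins, CDH11, known from osteoblasts and mesenchymal cells, had 57 counts (3.40 CPM) and 1129 counts (99.0 CPM), 29.1-fold higher (22.3 to 38.7). CDH12, a brain cadherin, had 15 counts (0.894 CPM) and 471 counts (41.3 CPM), 46.2-fold higher (27.7 to 83.2). CDH22, also known from brain, had 0 and 50 counts (4.38 CPM), at least 24.5-fold higher. CDH11 is itself a marker of mesenchymal cells, yet it was higher in the library in which 14 of 15 mesenchymal markers were lower. In the other direction, CDH6, known as kidney cadherin, had 290 counts (17.3 CPM) and 1 count, 197-fold lower (35.1 to 7814). CDH24, a broadly expressed alpha-catenin-binding cadherin, had 659 counts (39.3 CPM) and 109 counts (9.55 CPM), 4.11-fold lower (3.35 to 5.08). CDH10 and CDH18, both known from brain, had 21 and 22 counts in the control and none in the other library, and were at least 4.76 and 4.99 times lower. CDH7 and CDH8 stayed under 1 CPM.

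Levels between genes were compared per length, as CPM per kilobase of the longest annotated transcript. In the control library the order was CDH2 at 54.3, CDH24 at 11.1, CDH6 at 2.04, CDH4 at 0.979 and CDH11 at 0.494, and the counting intervals of these neighbours do not overlap. In the si-P53RRA library the order was CDH11 at 14.4 (13.6 to 15.3), CDH2 at 10.8 (9.87 to 11.7), CDH12 at 9.91 (9.04 to 10.9), CDH3 at 8.34 (7.60 to 9.13) and CDH24 at 2.69 (2.21 to 3.24). There CDH2 and CDH12, and CDH12 and CDH3, have overlapping intervals, so their order is not resolved at this depth. By share of counts, CDH2 held 77.0% (75.8 to 78.1) of the classical cadherin counts in the control and 19.1% (17.7 to 20.6) in the si-P53RRA library. CDH11 held 1.11% (0.843 to 1.44) and 40.5% (38.7 to 42.4), where these intervals are exact Clopper-Pearson intervals.

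CDH13, the T-cadherin that lacks a cytoplasmic tail and is held by a lipid anchor, stood with the group that was lower. It had 1123 counts (66.9 CPM) and 13 counts (1.14 CPM), 58.7-fold lower (34.2 to 111). The remaining cadherins, CDH17, CDH23 and CDH26, had at most 6 counts in either library.

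**Figure D2:**
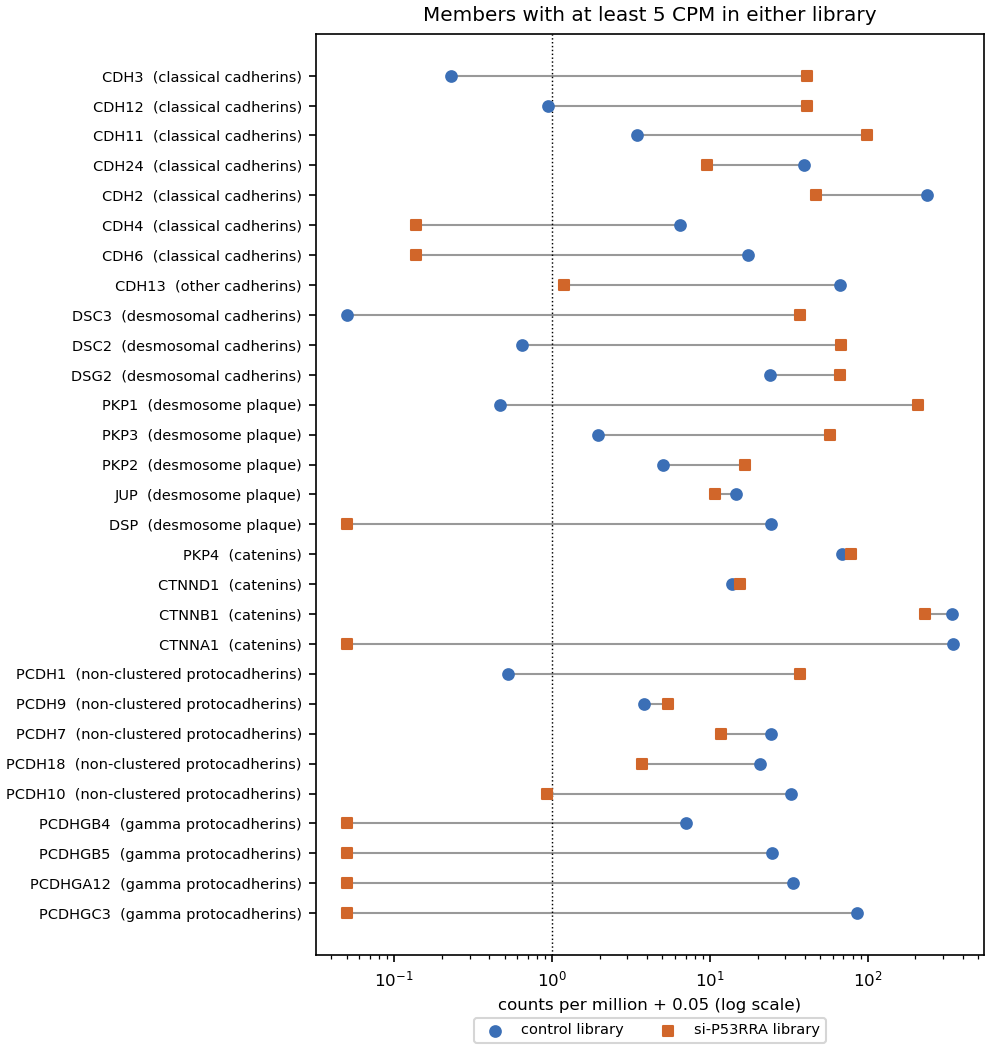
CPM (with 0.05 added, log axis) in the control library (circles) and the si-P53RRA library (squares) for the 29 members with at least 5 CPM in either library, ordered by role. The dotted line marks 1 CPM; PKP4, CTNND1, JUP, CTNNB1 and PCDH9 have close pairs, and most other pairs are far apart.

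Desmosomal cadherins were higher, and the desmocollins had at most 10 counts in the control library. DSC3, a desmocollin of basal and stratified epithelia, had 0 counts and 422 counts (37.0 CPM), at least 207-fold higher. DSC2, the desmocollin found in most tissues with desmosomes, had 10 counts (0.596 CPM) and 768 counts (67.3 CPM), 113-fold higher (61.1 to 237). DSG2, the desmoglein of simple epithelia and heart, had 401 counts (23.9 CPM) and 761 counts (66.7 CPM), 2.79-fold higher (2.47 to 3.16). DSG2 was thus clearly present in both libraries, with 97.1% (95.0 to 98.5) of the desmosomal cadherin counts in the control library and 39.0% (36.8 to 41.2) in the other. Per length, DSG2 at 11.4 CPM per kilobase exceeded DSC2 at 5.46 (5.08 to 5.86) and DSC3 at 5.30 (4.81 to 5.83) in the si-P53RRA library, and the intervals of the desmocollins overlap. DSG3, known from stratified epithelium, had 2 and 1 counts. DSC2 and DSG2 have annotated antisense neighbours, and the sources used here do not say whether the counting used strand.

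The plaque genes that bind these cadherins did not all go the same way. PKP1, a plakophilin known from stratified epithelium, had 7 counts (0.417 CPM) and 2354 counts (206 CPM), 495-fold higher (240 to 1232), the largest fold among members seen in both libraries. PKP3, the plakophilin of most epithelial desmosomes, had 32 counts (1.91 CPM) and 654 counts (57.3 CPM), 30.1-fold higher (21.1 to 44.3). PKP2, known from simple epithelia and heart, had 84 counts (5.01 CPM) and 189 counts (16.6 CPM), 3.31-fold higher (2.55 to 4.33). All 3 plakophilins of the desmosome were therefore higher in the si-P53RRA library. Desmoplakin, DSP, which links the plaque to keratin, had 408 counts (24.3 CPM) in the control and 0 counts in the si-P53RRA library. This made it at least 92.5-fold lower. Plakoglobin, JUP, the catenin shared by desmosomes and adherens junctions, had 246 counts (14.7 CPM) and 122 counts (10.7 CPM), 1.37-fold lower (1.10 to 1.72). The library with more desmosomal cadherin and plakophilin RNA thus had no count of DSP, and the 0 allows up to 0.263 CPM. The genes on either side of DSP in the gene order of chromosome 6 were detected in both libraries, RIOK1 with 365 and 200 counts and SNRNP48 with 385 and 104.

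The catenins of the adherens junction differed little apart from alpha-catenin. CTNNA1, the alpha-catenin of epithelia and most other tissues, had 5835 counts (348 CPM) in the control library and 0 counts in the si-P53RRA library. It was therefore at least 1322-fold lower. The count of 0 allows a level of up to 0.263 CPM. CTNNA3, the alpha-catenin of heart and testis, had 4 and 8 counts and stayed under 1 CPM. Beta-catenin, CTNNB1, which joins cadherins to alpha-catenin and also acts in Wnt signalling, had 5687 counts (339 CPM) and 2612 counts (229 CPM), 1.48-fold lower (1.41 to 1.55). CTNND1, p120-catenin, which keeps cadherins at the surface, had 229 counts (13.6 CPM) and 176 counts (15.4 CPM), with a ratio of 1.13-fold higher (0.923 to 1.38) whose interval includes 1. PKP4, a relative of p120-catenin, had 1147 counts (68.4 CPM) and 897 counts (78.6 CPM), 1.15-fold higher (1.05 to 1.26). CTNNB1, CTNND1 and PKP4 were thus all less than 2-fold apart. CTNND2, the neural relative, had 8 and 0 counts. CTNNA1 held 45.2% (44.3 to 46.1) and CTNNB1 44.1% (43.2 to 44.9) of the catenin counts in the control library.

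CTNNA1 lies on chromosome 5, and the gene order there was used to set it beside its neighbours. Of the 5 nearest measured genes on each side, EGR1, an immediate early transcription factor, had 10581 and 1 counts, 7194-fold lower (1291 to 284172). SIL1, a co-chaperone gene of the endoplasmic reticulum, had 759 and 14 counts, 36.9-fold lower (21.8 to 67.7), and REEP2 had 214 and 2 counts, 72.7-fold lower (19.9 to 605). The other neighbours differed less. The mitochondrial chaperone gene HSPA9, next to CTNNA1, had 9696 and 6472 counts, 1.02-fold lower (0.987 to 1.05), and the translation termination factor gene ETF1 had 4737 and 1489 counts, 2.16-fold lower (2.04 to 2.29). MATR3 had 5933 and 1810 counts, 2.23-fold lower (2.11 to 2.35), and KDM3B 1787 and 557, 2.18-fold lower (1.98 to 2.40). PAIP2 had 1090 and 400 counts and the RNA gene SNHG4 97 and 44, both less than 2-fold apart. PROB1 was higher, with 5 and 110 counts. Of these 10 neighbours, 6 were thus at least 2-fold lower and 1 higher. Of a list chosen from background knowledge, 21 genes of this stretch, CTNNA1 among them, reached 1 CPM. It had 2 higher and 12 lower, beside 19.7% and 23.2% of all rows tested. The list was chosen with earlier results of these data known. It holds CTNNA1 and every neighbour above except SNHG4, so its counts are not separate from those above. The other measured genes of the list were under 1 CPM, with too few counts to resolve a difference. LRRTM2, which lies within CTNNA1, had 4 and 0 counts and SLC23A1 6 and 0. PSD2 had 4 and 1 counts, NME5 2 and 2, and MZB1 0 and 1.

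**Figure D3:**
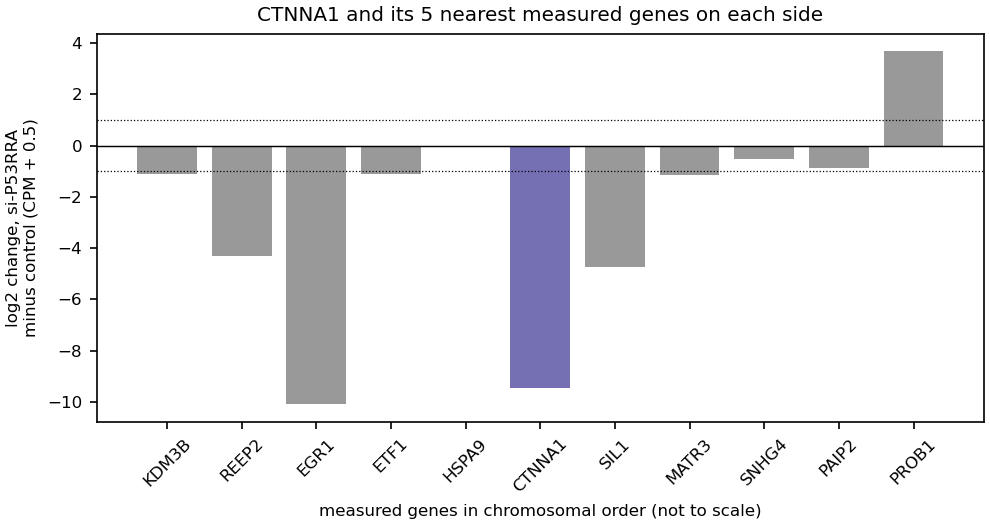
Log2 change of CPM + 0.5 (y axis, si-P53RRA minus control) for CTNNA1 and its 5 nearest measured genes on each side, in chromosomal order and not to scale. HSPA9 is near 0 while EGR1, REEP2 and SIL1 are far below the dotted lines, which mark 2-fold differences.

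The clustered protocadherins, which follow further along chromosome 5, were split by cluster. The gamma cluster had 2955 counts (176 CPM) in the control library and 27 counts (2.37 CPM) in the si-P53RRA library, 74.4-fold lower (51.0 to 113). The alpha cluster had 5 counts (0.298 CPM) and 250 counts (21.9 CPM), 73.5-fold higher (31.1 to 228). The beta cluster, which lies between them, had 52 counts (3.10 CPM) and 64 counts (5.61 CPM), 1.81-fold higher (1.24 to 2.66). Of all clustered protocadherin counts, the gamma cluster held 98.1% (97.6 to 98.6) in the control and 7.92% (5.28 to 11.3) in the si-P53RRA library, and the alpha cluster 0.166% (0.0539 to 0.387) and 73.3% (68.3 to 77.9). Genes within the alpha and within the gamma cluster share their last exons and overlap along the chromosome. The sources used here do not say how the authors' counting treated reads in shared exons, so the cluster sums are firmer than the values of single genes.

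In the gamma cluster 14 genes reached 1 CPM, all of them only in the control library, so that their lower values in the other library follow in part from the filter. PCDHGC3, the C-type member known to be expressed in many cell types, had 1424 counts (84.9 CPM) and 0 counts, at least 323-fold lower. PCDHGA12 had 565 counts (33.7 CPM) and 0, at least 128-fold lower, and PCDHGB5 416 counts (24.8 CPM) and 0, at least 94.3-fold lower. These 3 genes held most of the cluster, with PCDHGC3 alone at 48.2% of its control counts. PCDHGB4 (117 counts) and PCDHGA7 (66 counts) were also at 0 in the si-P53RRA library, as were PCDHGC5, PCDHGA4, PCDHGA8 and PCDHGA9 with 18 to 32 counts in the control. PCDHGB2, PCDHGA6 and PCDHGB3, with 50, 48 and 29 counts in the control, kept 1 count each. PCDHGA10 had 39 and 5 counts, 5.30-fold lower (2.09 to 17.2), and PCDHGB7 had 33 and 6, 3.74-fold lower (1.55 to 10.9). PCDHGA1, the first gene of the cluster, had 9 and 6 counts, 1.02-fold lower (0.324 to 3.48), too few to resolve a difference.

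In the alpha cluster 6 genes reached 1 CPM, only in the si-P53RRA library, and had 0 counts in the control library. PCDHA12, with 48 counts (4.21 CPM) in the si-P53RRA library, was at least 23.5-fold higher. PCDHA5 and PCDHAC1 had 40 counts each (3.51 CPM), at least 19.6-fold higher. PCDHA11 and PCDHA13 had 33 counts each, at least 16.2-fold higher, and PCDHAC2 had 25 counts, at least 12.3-fold higher. The other 8 alpha genes stayed under 1 CPM with 1 to 10 counts there, and PCDHA12 held 19.2% (14.5 to 24.6) of the cluster's counts, so that no single gene dominated it. In the beta cluster, whose genes are single coding exons without shared ends, 3 of 14 reached 1 CPM, each only in the si-P53RRA library, which fixes their direction. PCDHB12 had 1 and 15 counts, 22.1-fold higher (3.39 to 929), PCDHB2 4 and 17 counts, 6.25-fold higher (2.04 to 25.5), and PCDHB14 8 and 18 counts, 3.31-fold higher (1.37 to 8.80). Other beta genes went the other way, since 8 were at 0 in the si-P53RRA library, with at most 9 counts in the control.

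**Figure D4:**
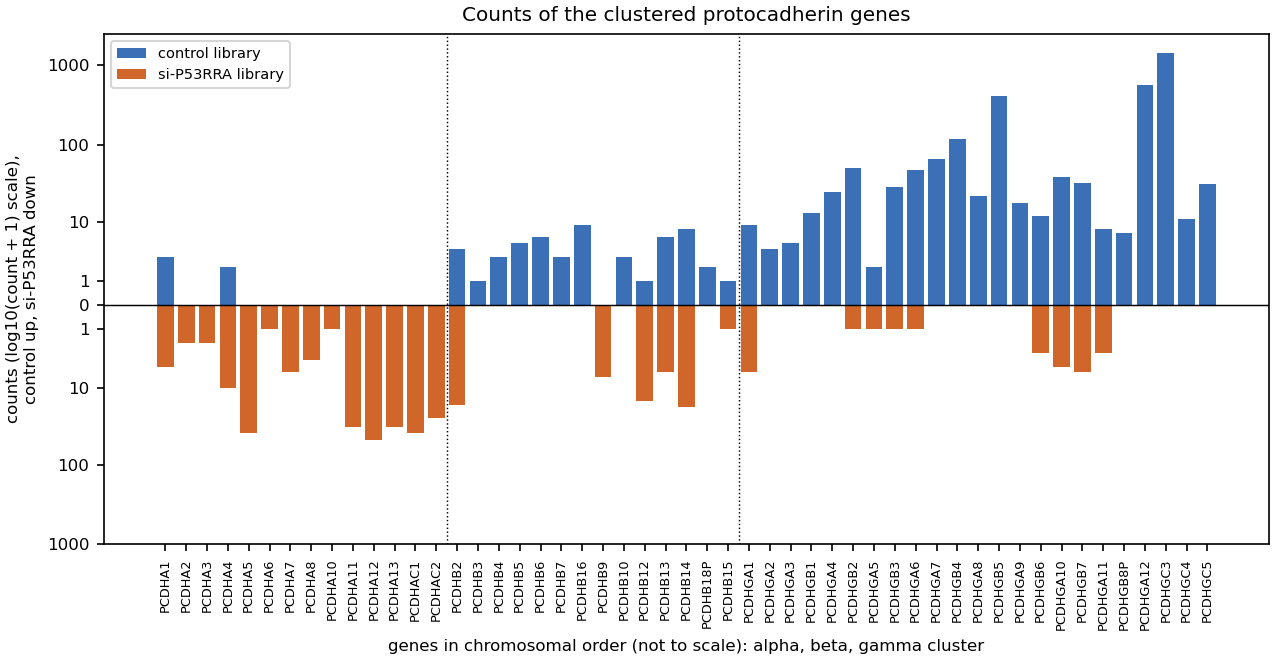
Counts of each clustered protocadherin gene in chromosomal order (x axis, not to scale), control library upwards and si-P53RRA library downwards, on a log10(count + 1) scale. Dotted lines separate the alpha, beta and gamma clusters; the control bars are tallest at PCDHGC3, PCDHGA12 and PCDHGB5, and the si-P53RRA bars at PCDHA12, PCDHA5 and PCDHAC1.

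Each variable exon of these clusters has its own promoter, most of which carry a conserved element with the core CGCT, and cells choose among them. Stretches from 100 bases before to 20 bases after the annotated start are shown for some of the alpha and gamma genes that differed. They are not in every case those with most counts, since PCDHGA7 is shown and PCDHGA12, with more counts, is not. PCDHA1 and PCDHB12 are included as a low alpha gene and a beta gene. The sequences are those of RefSeq on GRCh38.p14, all on the plus strand of chromosome 5 and written 5′ to 3′, with every CGCT on that strand in capitals. The deposited counts were made on hg19, so the sequences were matched by symbol and not by position.
PCDHA1: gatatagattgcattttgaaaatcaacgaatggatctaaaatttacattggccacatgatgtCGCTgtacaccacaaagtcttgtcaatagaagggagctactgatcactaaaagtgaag
PCDHA5: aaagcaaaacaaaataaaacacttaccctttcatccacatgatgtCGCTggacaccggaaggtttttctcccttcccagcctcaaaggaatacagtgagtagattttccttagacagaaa
PCDHA11: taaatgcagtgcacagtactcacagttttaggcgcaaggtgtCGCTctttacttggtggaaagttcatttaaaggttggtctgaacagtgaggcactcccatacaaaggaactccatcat
PCDHA12: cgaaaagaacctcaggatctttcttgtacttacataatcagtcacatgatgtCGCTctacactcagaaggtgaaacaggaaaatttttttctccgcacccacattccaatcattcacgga
PCDHB12: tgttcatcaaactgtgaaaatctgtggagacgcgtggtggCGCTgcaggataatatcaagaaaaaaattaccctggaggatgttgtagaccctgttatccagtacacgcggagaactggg
PCDHGA7: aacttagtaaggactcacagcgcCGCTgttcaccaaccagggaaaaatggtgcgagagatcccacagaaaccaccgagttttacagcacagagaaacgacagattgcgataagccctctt
PCDHGB5: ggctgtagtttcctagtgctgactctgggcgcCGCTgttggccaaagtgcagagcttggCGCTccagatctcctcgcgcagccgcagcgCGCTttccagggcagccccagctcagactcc
PCDHGC3: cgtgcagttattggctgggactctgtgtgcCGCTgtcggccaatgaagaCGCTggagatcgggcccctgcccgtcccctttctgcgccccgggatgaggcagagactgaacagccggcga
The stretch of PCDHA12 is chr5:140875208-140875327 and that of PCDHGC3 is chr5:141475866-141475985. CGCT is short and was found on either strand in 70.0% of all 35116 promoter windows, which run from 250 bases before to 50 after the start, and in all 12 alpha, 12 beta and 25 gamma windows. The 12 bases that end in CGCT in PCDHA12, CATGATGTCGCT, were found in 8 of 12 alpha windows, in no beta or gamma window, and in 8 of all 35116 windows (0.0228%). The 10 bases GGCGCCGCTG around the first CGCT of PCDHGB5 were found in 7 of 25 gamma windows, in no alpha or beta window, and in 0.484% of all windows. Both longer motifs contain CGCT, were read off the printed sequences and were searched on both strands. The 12-base motif did not follow the counts throughout. PCDHA12 and PCDHA5, with 48 and 40 counts in the si-P53RRA library, carry it. PCDHA1, PCDHA2, PCDHA4, PCDHA6, PCDHA7 and PCDHA8 carry it too and had at most 10 counts. The windows of PCDHA11 and PCDHAC1, with 33 and 40 counts, have no exact match, and inexact matches were not sought. A match describes letters in a window and is not evidence that a factor was bound there.

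Of the 5 nearest measured genes on the alpha side of the clusters none was 2-fold apart, and ZMAT2, HARS2 and HARS had 1477 and 536, 616 and 452, and 1816 and 1014 counts. Beyond the gamma cluster, 3 of 5 were lower, beside 23.2% of all rows tested. Members were not counted among these genes, so PCDH1, which lies there and was higher, is not included. DIAPH1, a formin that nucleates actin, was 1.66-fold lower (1.58 to 1.75). The next genes, HDAC3, RELL2 and FCHSD1, were 2.94-fold (2.67 to 3.24), 14.8-fold (9.12 to 25.7) and 14.8-fold (9.56 to 24.1) lower, and ARAP3 had 407 and 318 counts.

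Of the 12 non-clustered protocadherins, 7 reached 1 CPM, of which 2 were higher and 3 lower, beside 19.7% and 23.2% of all rows tested. PCDH1, known from airway and other epithelia and located just beyond the gamma cluster, had 8 counts (0.477 CPM) and 424 counts (37.2 CPM), 78.0-fold higher (39.2 to 182). PCDH19, known from brain, had 3 and 15 counts, 7.35-fold higher (2.08 to 39.6). The genes of chromosome 4 were all lower. PCDH10 had 543 counts (32.4 CPM) and 10 counts (0.877 CPM), 36.9-fold lower (19.9 to 77.4). PCDH18 had 349 counts (20.8 CPM) and 42 counts (3.68 CPM), 5.65-fold lower (4.09 to 7.98). PCDH7 had 408 counts (24.3 CPM) and 133 counts (11.7 CPM), 2.09-fold lower (1.71 to 2.56). These 3 belong to the delta protocadherins, best known from the nervous system. So do PCDH1 and PCDH19, which were higher, and PCDH9. PCDH9, with 63 and 61 counts, and PCDH15, a gene of the hair cells of the ear with 19 and 23 counts, had ratios of 1.42 (0.985 to 2.06) and 1.78 (0.928 to 3.46), whose intervals include 1.

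Outside the protocadherin clusters, some members that follow each other on a chromosome differed in direction, and others, such as the chromosome 4 protocadherins, did not. On chromosome 5, CDH18, CDH12, CDH10 and CDH6 follow each other among the members. CDH12 was higher and its neighbours were lower. On chromosome 18, CDH2 was lower while DSC3, DSC2 and DSG2, the next members but for DSG3, were higher. On chromosome 16, CDH11 and CDH3 were higher, CDH1 beside CDH3 was near the detection limit in both libraries, and CDH13 was lower.

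**Figure D5:**
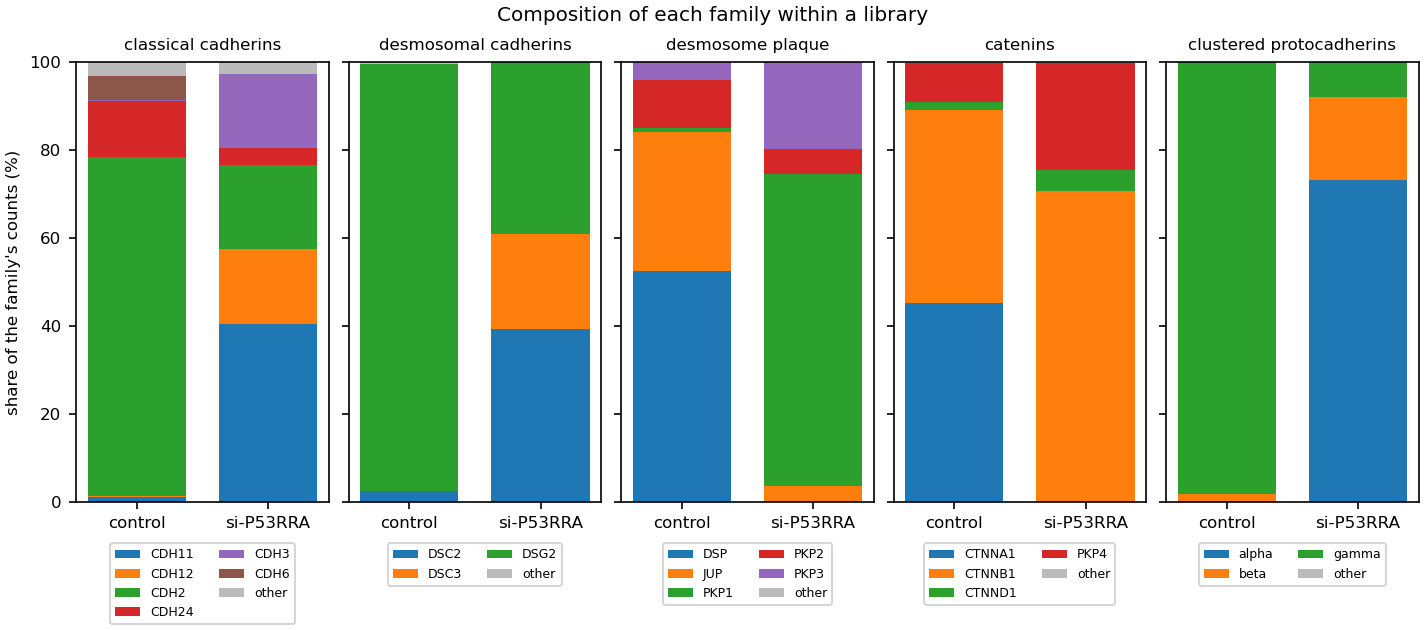
Share of each family's counts (y axis, %) held by its members in the control and the si-P53RRA library, for classical cadherins, desmosomal cadherins, desmosome plaque genes, catenins and the protocadherin clusters. The member with most counts changes from CDH2 to CDH11, from DSP to PKP1 and from the gamma to the alpha cluster. Shares are not per length: in the control library JUP, at 4.19 CPM per kilobase, exceeded DSP at 2.48.

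Partners of the junctions were described from lists chosen with earlier results of these data known, and counts are over the genes of a list that reached 1 CPM. Each count of higher and lower genes here and in the next 2 paragraphs stands beside 19.7% and 23.2% of all rows tested. Actin linkers of adherens junctions were mostly less than 2-fold apart: out of 18, 3 were higher and 2 were lower, and the median log2 change was −0.10 beside −0.055 for all rows. Vinculin, VCL, which binds alpha-catenin under tension, had 5295 and 14936 counts, 4.15-fold higher (4.02 to 4.28), and SHROOM3, which organises apical actin, was 4.27-fold higher (3.40 to 5.39). MLLT4, the afadin that links nectins to actin, had 891 and 52 counts, 11.6-fold lower (8.80 to 15.7), and the actin-binding LIMA1 was 3.29-fold lower (3.01 to 3.61). Of 11 partners of the desmosome, 6 were higher and 2 lower. EVPL, a relative of desmoplakin, had 0 and 216 counts, at least 106-fold higher. Of the keratins, whose filaments desmosomes anchor, KRT19 had 8 and 7052 counts and KRT6B 0 and 34. KRT8, a keratin of simple epithelia, was 4.67-fold higher (4.28 to 5.11). The lower partners, which were picked out once their values were known, were the plakin PPL with 799 and 160 counts, 3.40-fold lower (2.86 to 4.05), and CDSN with 50 and 9 counts, 3.78-fold lower (1.84 to 8.74).

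Among 19 kinases, phosphatases, proteases and trafficking genes that act on cadherins, 2 were higher and 7 lower, together 47.4%, close to the 42.9% apart over all rows. ADAM10, the main sheddase of E- and N-cadherin, had 1917 and 282 counts, 4.62-fold lower (4.08 to 5.26), and ADAM15 had 2950 and 16694 counts, 8.32-fold higher. The scaffold IQGAP1, which binds beta-catenin, was 5.23-fold lower (4.87 to 5.63), and the kinase FER was 4.19-fold lower (3.19 to 5.59). Of 11 transcription and splicing regulators of cadherins, 4 were higher and 5 lower. TWIST2, a mesenchymal factor, had 1076 and 0 counts, at least 244-fold lower, and ZEB2, a repressor of CDH1, had 442 and 3 counts, 100-fold lower (34.1 to 488). The epithelial regulators ELF3 and ESRP2 had 2 and 569 counts and 5 and 774 counts. SNAI1, another repressor of CDH1 that was named after its values were seen, went the other way with 26 and 145 counts. CDH1 itself had 2 and 7 counts in the same libraries.

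Genes that control beta-catenin were mostly level, 1 of 18 being higher and 3 lower at a median log2 change of 0.069. APC, of the complex that degrades beta-catenin, had 630 and 46 counts, 9.31-fold lower (6.90 to 12.9), and its relative APC2 had 17 and 128 counts, 11.1-fold higher (6.65 to 19.6). The transcription factors LEF1 and TCF7L1 had 60 and 3 counts and 44 and 2 counts. Of 11 targets of beta-catenin, 4 were higher and 3 lower. RNF43 had 0 and 396 counts, at least 194-fold higher, LGR5 1 and 147 counts, 216-fold higher (38.2 to 8597), and SP5 2 and 33 counts, while LEF1 was 13.6-fold lower (4.44 to 67.8). Beside the share of 42.9% apart over all rows, 7 of these 11 targets were apart.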

How the data were processed

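RNA was poly(A)-selected, per the labels' protocols. The authors deposited counts, whole numbers per gene symbol in 2 columns that sum to different totals and so were not normalized. The build was hg19, per the submitters' processing notes. Aligner, counter, annotation and strand use were not given in the sources used here. The si-P53RRA column matches a sample title, and si-NC was assigned to the control group. The members and gene lists were chosen with earlier results of these data known.

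Library sizes were scaled by the trimmed mean of M-values over all rows (edgeR 4.0.16, R 4.3.3), with factors of 1.05 and 0.955. A log2 change compares CPM + 0.5 and was tallied for rows with at least 1 CPM in either library. Folds are ratios of CPM with exact conditional binomial 95% intervals, and shares have Clopper-Pearson intervals. Against a library at 0, folds were bounded with 3 counts there (0.179 CPM in the control, 0.263 CPM in the other). No molecular identifiers are recorded, and PCR copies are not independent, so all intervals and floors cover counting error only. Every member with at least 1 CPM is named, with full values from 5 CPM, and at most 4 genes per list with the largest change. PCDH11Y was counted only. Gene order, for 16745 rows, and promoters, for 75 of 96 members, came from RefSeq on GRCh38.p14, and transcript lengths from GENCODE 29, a newer build than that of the counts. Scaling by total counts, upper quartile and median ratio (DESeq2 1.42.0), other filters, pseudocounts and sizes, and summed protocadherin clusters were tried. Filtering on both libraries and setting genes at 0 to their bound were added after the data were seen. The procedure was tested on simulated counts.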

Additional observations from a re-analysis of the deposited data

How the results depend on the processing

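Neither upper-quartile nor median-ratio scaling moved the number of members called (21 higher, 26 lower), and total-count scaling left both numbers as they were while it shifted the median of all rows by −0.13 and that of the members to −0.70. With at least 5 CPM required, 10 members were higher and 14 lower of 29 left; with at least 1 CPM in both libraries, 4 and 5 of 15; and with each protocadherin cluster summed, 13 and 13 of 33. A 4-fold threshold left 15 members higher and 16 lower, and a pseudocount of 2.5 CPM left 16 higher and 16 lower. The larger number of lower members was thus not kept at these settings. No share over all rows was taken at 5 CPM, at 4-fold, at this pseudocount or with summed clusters. The median log2 change of the members became −0.075 with no filter, 0.17 with 1 CPM in both libraries and 0.20 with summed clusters, so it has no stable sign; the last 2 settings count fewer members by construction. Setting genes at 0 to their bound left it at −0.56. Over 22 members with counts in both libraries, 66 ratios were recomputed under the 3 other scalings: none changed direction, and CTNNB1 and PKP4 moved by more than their counting interval under total-count scaling. No paired analysis was possible because each group had 1 library, and no library could be left out. Depth limits genes under 1 CPM, where differences such as that of CDH1 were not resolved.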

Other observations

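Cadherin relatives outside the classical families, and the nectins that adherens junctions share with them, also differed between the libraries. Of 15 atypical cadherins with counts, 10 reached 1 CPM. At least 2-fold differences were found for 4 that were higher and 4 that were lower, beside 19.7% and 23.2% of all rows tested. CLSTN3, a synaptic calsyntenin, had 401 and 0 counts, at least 90.9-fold lower. The giant cadherins FAT4 and FAT3 had 543 and 7 counts, 52.7-fold lower (25.4 to 132), and 156 and 0 counts, at least 35.4-fold lower. CELSR1, a planar polarity cadherin, had 87 and 606 counts, 10.2-fold higher (8.17 to 13.0). Of the 4 nectins and relatives that reached 1 CPM, PVRL1, or nectin-1, had 547 and 1675 counts, 4.50-fold higher (4.09 to 4.97), and PVRL2, PVRL3 and PVR were 3.21-fold (2.91 to 3.54), 3.16-fold (2.60 to 3.86) and 2.24-fold (2.05 to 2.44) lower.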
